A study of Mus musculus with 3 samples.

Results

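The sites described here are hotspots of meiotic recombination that the CAST allele of Prdm9 places and that carry the histone mark H3K4me3 almost entirely on the B6 homologue. They were taken from a table of 24586 DMC1 hotspots (sites) in the testis of hybrid F1 males, whose parents were of the inbred strains C57BL/6J (B6) and CAST/EiJ (CAST). A site was kept when it lay on an autosome, was assigned by the authors to the CAST allele, did not overlap a PRDM9-independent H3K4me3 peak, and had more than 0.9 of its H3K4me3 on the B6 homologue. This left 1224 sites, called B6-only CAST-allele sites below, of 23631 autosomal sites and of 10708 that met the other conditions and had an H3K4me3 share. In each animal the second Prdm9 allele beside the CAST one was a humanized allele (HUM). The DMC1 library came from a male of 10 weeks and the H3K4me3 library from an adult male, both from whole testis, and there was 1 library per assay. No difference below could therefore be tested, and each describes these data. Raw H3K4me3 data are credited to Li and colleagues, and whether they equal the H3K4me3 library named here was not established.

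PRDM9 binds DNA through its array of zinc fingers and trimethylates histone H3 at lysine 4 on the nucleosomes beside its motif. SPO11 then breaks the DNA there, the ends are resected, and the recombinase DMC1 coats the single strands and searches for the homologue, which serves as the template for repair. Since the broken homologue is repaired from the unbroken one, a motif that binds PRDM9 well tends to be lost over generations in a population where that PRDM9 allele is active. A hybrid can therefore carry motifs that PRDM9 recognises on one homologue and barely on the other.

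For a few of these sites the DNA around the break could be read. RefSeq promoter windows (250 bases before to 50 after a gene's start) held the peak centre of 4 of the 1224 sites, all at genes of long noncoding RNAs. The windows are from GRCm38.p6, the same assembly as the mm10 coordinates of the sites, and so give the B6 sequence, which is the homologue that carries the mark. The window of Lrrc2 is shown beside them, since it holds the centre of a CAST-allele site marked on the CAST homologue, where the B6 sequence is that of the unmarked homologue. Capitals mark the peak centre with up to 20 bases on each side, and each sequence runs 5′ to 3′ along the gene's strand.
Gm32200 (chr1:191464999-191465298, minus strand): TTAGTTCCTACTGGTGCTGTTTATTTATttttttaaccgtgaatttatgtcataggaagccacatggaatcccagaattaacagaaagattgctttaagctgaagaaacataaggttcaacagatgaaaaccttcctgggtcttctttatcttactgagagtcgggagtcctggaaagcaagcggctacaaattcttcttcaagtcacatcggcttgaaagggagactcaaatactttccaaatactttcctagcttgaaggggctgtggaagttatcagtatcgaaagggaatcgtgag
Gm33162 (chr3:101517184-101517483, minus strand): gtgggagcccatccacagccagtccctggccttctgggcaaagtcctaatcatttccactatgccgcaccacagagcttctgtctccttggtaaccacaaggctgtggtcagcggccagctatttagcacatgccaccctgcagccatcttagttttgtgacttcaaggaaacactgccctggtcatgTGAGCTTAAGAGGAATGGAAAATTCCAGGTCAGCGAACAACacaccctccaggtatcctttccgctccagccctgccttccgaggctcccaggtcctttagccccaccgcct
Gm52617 (chr3:138086457-138086756, minus strand): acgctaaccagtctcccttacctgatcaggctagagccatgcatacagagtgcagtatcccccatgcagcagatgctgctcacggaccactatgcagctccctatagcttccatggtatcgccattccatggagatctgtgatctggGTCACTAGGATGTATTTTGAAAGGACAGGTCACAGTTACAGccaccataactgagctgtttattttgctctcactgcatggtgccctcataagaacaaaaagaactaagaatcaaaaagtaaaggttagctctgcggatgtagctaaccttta
Gm51457 (chr7:127076744-127077043, plus strand): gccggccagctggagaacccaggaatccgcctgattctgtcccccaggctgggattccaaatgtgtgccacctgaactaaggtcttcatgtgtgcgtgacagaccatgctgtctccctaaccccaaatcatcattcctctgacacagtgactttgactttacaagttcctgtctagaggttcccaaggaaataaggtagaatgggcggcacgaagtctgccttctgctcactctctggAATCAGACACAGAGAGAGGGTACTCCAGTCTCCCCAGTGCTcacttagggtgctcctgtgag
Lrrc2 (chr9:110951295-110951594, plus strand): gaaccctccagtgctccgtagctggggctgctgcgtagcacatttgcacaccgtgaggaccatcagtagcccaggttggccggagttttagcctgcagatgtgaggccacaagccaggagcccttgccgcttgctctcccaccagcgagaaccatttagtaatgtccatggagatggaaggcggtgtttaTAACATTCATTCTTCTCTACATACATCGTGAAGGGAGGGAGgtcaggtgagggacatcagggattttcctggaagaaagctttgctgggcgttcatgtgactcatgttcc

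The site at Gm32200 (centre at chromosome 1, 191465291) had a DMC1 signal of 539 and an H3K4me3 signal of 25.2, with DMC1 and H3K4me3 B6 shares of 0.988 and 0.943. The site at Gm51457 (chromosome 7, 127077002) was as strong in DMC1, at 541, with H3K4me3 of 22.7 and shares of 0.976 and 0.968. Both signals are intensities in the authors' units, which have no absolute scale, and a B6 share is the part of a signal that lay on the B6 homologue. The site at Gm52617 (chromosome 3, 138086589) had DMC1 of 421 and H3K4me3 of 22.2, with shares of 0.995 and 0.974. The site at Gm33162 (chromosome 3, 101517275) was the weakest of the 4, with DMC1 of 126 and H3K4me3 of 10.2, and shares of 0.985 and 0.939. The site at Lrrc2 (chromosome 9, 110951505) had DMC1 of 124 and H3K4me3 of 14.4, but shares of only 0.0166 and 0.0852. The GC content of the 4 windows was 40% at Gm32200, 55.3% at Gm33162, 46.3% at Gm52617 and 53% at Gm51457, against 53.7% at Lrrc2.

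The sites were selected on the H3K4me3 share, so its values are given as a description. Its median was 0.951 (quartiles 0.927 and 0.972), and 38 sites had a share of exactly 1. The 3 sites just inside the threshold lay in Retreg1, a receptor for autophagy of the endoplasmic reticulum (chromosome 15, 25905367, share 0.9002), in Kcnk16, a potassium channel (chromosome 14, 20267909, 0.9003), and 57.5 kb from Dll1, a Notch ligand (chromosome 17, 15309810, 0.9006). Just outside it were sites 10.3 kb from Abcf1, in Zdhhc14 and in Pcdh9, each with a share of 0.9. The 3 inside had DMC1 signals of 818, 314 and 267, and the 3 outside had 38.9, 34.0 and 23.3, with H3K4me3 of 6.96, 2.54 and 2.09. Sites at the threshold thus ranged widely in strength, and the 3 at 0.9 had weak H3K4me3. The gap between these few sites is not that of the sites on each side as a whole. Median DMC1 was 121 at the 818 CAST-allele sites with shares over 0.8 and up to 0.9. It was 194 at the 603 with shares over 0.9 and up to 0.95.

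For comparison, 3 other sets of autosomal sites off PRDM9-independent peaks were taken. They were 403 CAST-allele sites with an H3K4me3 B6 share under 0.1 (CAST-only), 6799 CAST-allele sites with a share of 0.3 to 0.7 (symmetric) and 615 HUM-allele sites with a share over 0.9 (B6-only HUM-allele sites). At the CAST allele B6-only sites outnumbered CAST-only sites 3.04 to 1. At the HUM allele there were 615 B6-only and 563 CAST-only sites, a ratio of 1.09 to 1. The B6-only class held 11.4% of the CAST-allele sites with an H3K4me3 share (exact 95% interval 10.8% to 12.05%), and the CAST-only class 3.76% (3.41% to 4.14%). Among all autosomal sites with an H3K4me3 share, 8.95% had one over 0.9. These intervals cover counting error only.

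DMC1, the mark that the selection did not use, lay on the same homologue. Of the 1218 B6-only CAST-allele sites with a DMC1 share, 1186 had one over 0.9, or 97.4% (96.3% to 98.2%), against 19.3% of all autosomal sites with that share and 21.2% of the CAST-allele sites off PRDM9-independent peaks. The median DMC1 share was 0.989 (quartiles 0.980 and 0.995), and no site had one under 0.1. The lowest was 0.654. B6-only HUM-allele sites had a median of 0.984, and 94.2% of 603 were over 0.9. CAST-only sites had a median of 0.0153, with 94.7% of 399 under 0.1, and symmetric sites had 0.455, with 1.39% of 6640 over 0.9. At CAST-allele sites with an H3K4me3 share of 0.8 to 0.9 the median DMC1 share was 0.963, and 88.6% were over 0.9. At H3K4me3 shares of 0.7 to 0.8 these values were 0.879 and 40.3%. A DMC1 share over 0.9 was thus not particular to the B6-only class.

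**Figure D1:**
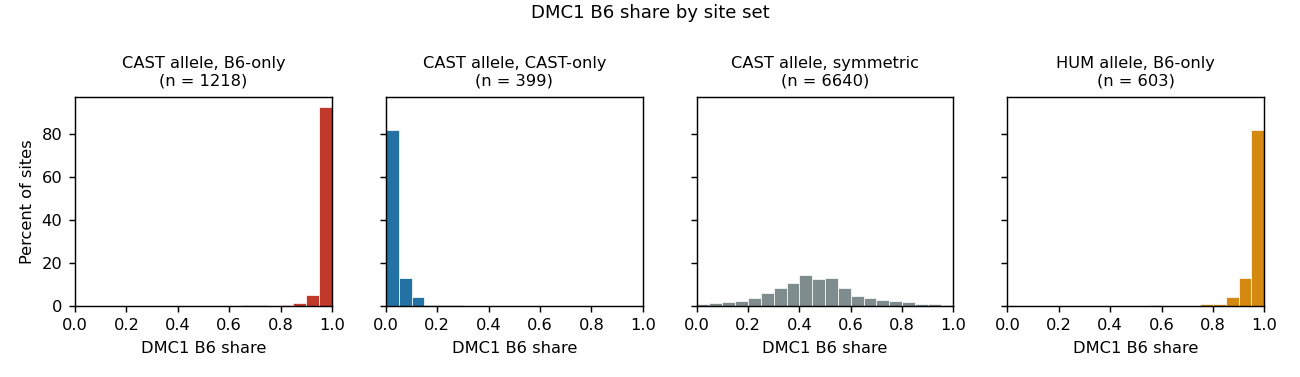
Percent of sites (y axis) by DMC1 B6 share (x axis, bins of 0.05) in B6-only CAST-allele, CAST-only, symmetric and B6-only HUM-allele sites. The 1218 B6-only CAST-allele sites crowd at the right edge with a median of 0.989, and the 6640 symmetric sites spread around 0.455.

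DMC1 was more one-sided than H3K4me3. At 1081 of the 1218 sites (88.8%, interval 86.8% to 90.5%) the DMC1 share exceeded the H3K4me3 share. At 5 they were equal, and at 132 the DMC1 share was lower. The count holds the H3K4me3 share that the selection used, so it is given as a description. Over all CAST-allele sites off PRDM9-independent peaks with both shares, the DMC1 share was the higher at 46.4%. That value is no background for one-sidedness, since at sites skewed to the CAST homologue a lower share is the more one-sided. At the median site 1.06% of the DMC1 signal but 4.86% of the H3K4me3 signal was on the CAST homologue. The mirror image held at CAST-only sites, where 1.53% of DMC1 and 5.88% of H3K4me3 was on the B6 homologue and DMC1 was the more one-sided at 329 of 399 sites. B6-only HUM-allele sites had 1.57% and 6.00% on the CAST homologue. At CAST-allele sites with H3K4me3 shares of 0.7 to 0.8 and 0.8 to 0.9, median DMC1 shares were 0.879 and 0.963, each above its range. How much of the residual H3K4me3 on the other homologue was placed by PRDM9 was not tested.

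A minority departed from this pattern. A DMC1 share of 0.9 or less was found at 32 sites, or 2.63% (1.80% to 3.69%), and 6 of them were under 0.8. These were mostly weak, with median signals of 27.7 in DMC1 and 5.37 in H3K4me3, against 271 and 18.3 at the other 1186. The lowest share, 0.654, was at a site 75.9 kb from Igbp1b (chromosome 6, 138734356; DMC1 91.1). It was followed by sites in Klhl32 (chromosome 4, 24629243; share 0.667, DMC1 16.3) and 21.1 kb from Kirrel3, an adhesion molecule of neurons (chromosome 9, 34464713; 0.717, DMC1 28.9). The fourth was strong, with DMC1 of 480 and H3K4me3 of 25.2, and lay in Dlg1, a scaffold protein of cell junctions (chromosome 16, 31827882; 0.718). Its nearest other site was 2.29 kb away, and the part of that site in its signals was not tested. The fifth lay 748 kb from Grm7, a glutamate receptor (chromosome 6, 109897457; 0.727, DMC1 17.1). Another site lay within 10 kb of 7 of the 32 sites and of 238 of the other 1186.

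These sites were strong in DMC1. Their median signal was 262 (quartiles 112 and 480), and the 95% interval of the median over sites was 249 to 288. CAST-only sites had a median of 128 (61.2 and 251), symmetric sites 74.9 (31.1 and 185) and B6-only HUM-allele sites 82.6 (35.7 and 189). The B6-only CAST-allele median was thus 2.05-fold above CAST-only, 3.51-fold above symmetric and 3.18-fold above B6-only HUM-allele sites. All 3 pointed the same way on each of the 19 autosomes. The quartile ranges of the sets overlapped, and single sites ran from 10.5 to 1093. In a bulk library a site broken in more cells and a site where DMC1 stays longer in each cell cannot be told apart.

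H3K4me3 differed less between the sets. The median was 17.8 (quartiles 10.5 and 26.4) at B6-only CAST-allele sites, against 10.8 at CAST-only sites, 13.6 at symmetric sites and 10.6 at B6-only HUM-allele sites. The excess over symmetric sites was 1.31-fold, on 18 of 19 autosomes, and without sites whose H3K4me3 value recurs elsewhere in the table the log2 difference was -0.00087. DMC1 per H3K4me3 was 2.29-fold higher than at symmetric sites (log2 difference 1.20) and 1.78-fold higher than at B6-only HUM-allele sites (0.83), on 19 of 19 autosomes each. Against CAST-only sites it was 1.11-fold higher (0.14), on 14 of 19 autosomes, a small difference beside the quartiles of 3.21 and 4.37 on the log2 scale at B6-only CAST-allele sites.

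**Figure D2:**
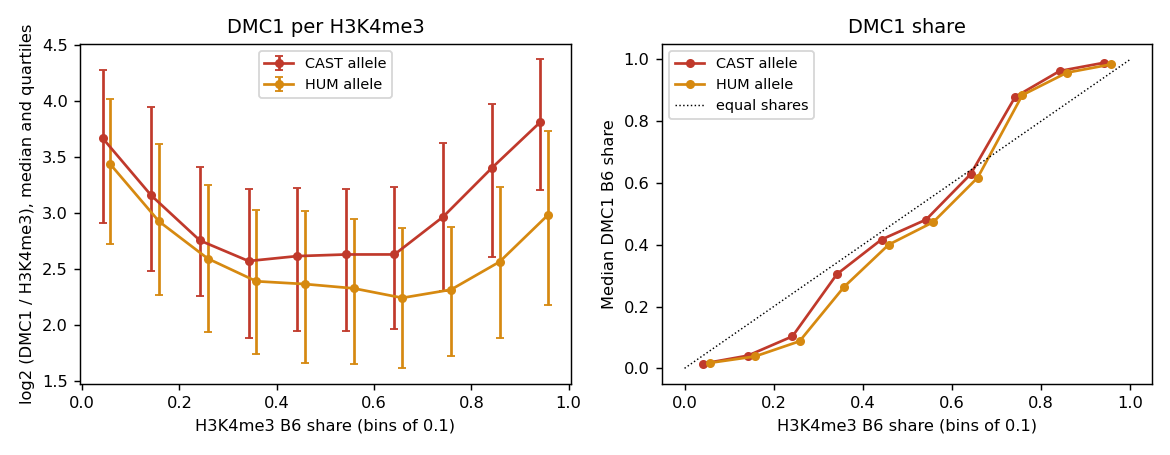
Left, the log2 ratio of DMC1 to H3K4me3 (y axis; points are medians, bars are quartiles) by H3K4me3 B6 share (x axis, 10 bins of 0.1) at CAST-allele and HUM-allele sites off PRDM9-independent peaks. Right, the median DMC1 B6 share by the same bins, with a dotted line for equal shares. The B6-only CAST-allele sites, the last bin, have the highest median log2 ratio of 3.82, and the bins between 0.3 and 0.7 lie at 2.57 to 2.63.

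Along the H3K4me3 share these sites formed the high end of a curve with a flat floor. The median log2 ratio of CAST-allele sites was 2.57, 2.62, 2.63 and 2.63 in the 4 bins of 0.1 from 0.3 to 0.7. It was 2.97 at 0.7 to 0.8, 3.404 at 0.8 to 0.9 and 3.82 above 0.9. At the other end it was 2.76, 3.16 and 3.67 in the bins from 0.3 down to 0. HUM-allele sites reached 3.44 below 0.1 but 2.99 above 0.9, so the right arm was the lower one there, while it was the higher one at the CAST allele. Among B6-only CAST-allele sites the 583 with shares over 0.95 and under 1 had a median DMC1 of 357, H3K4me3 of 21.5 and log2 ratio of 3.998. The 603 with shares up to 0.95 had 194, 14.4 and 3.67. The 38 with a share of exactly 1 were weak, with 68.7, 9.87 and 3.08, and 36 of them had a DMC1 share, which was over 0.9 at 33.

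At like H3K4me3 the excess over symmetric sites was seen at every level. The B6-only CAST-allele sites were cut into 5 equal bins of H3K4me3. In the lowest bin (2.52 to 9.32) their median DMC1 was 56.4, against 28.2 at symmetric sites of that range. In the middle bin (15.1 to 21.2) the medians were 276 at B6-only and 112 at symmetric sites, and in the highest bin (28.4 to 72.6) they were 524 at B6-only and 302 at symmetric sites. From the lowest to the highest bin the ratio of medians was 2.003, 2.48, 2.46, 2.75 and 1.73. Against B6-only HUM-allele sites it was 1.51, 1.77, 1.35, 1.62 and 1.51, with only 19 sites of that set in the highest bin. Against CAST-only sites it was 0.7999, 1.003, 1.06, 1.36 and 1.25, so that the 2.05-fold difference in DMC1 was not seen at like H3K4me3 in the lower 3 bins; the upper 2 held 29 and 13 CAST-only sites.

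**Figure D3:**
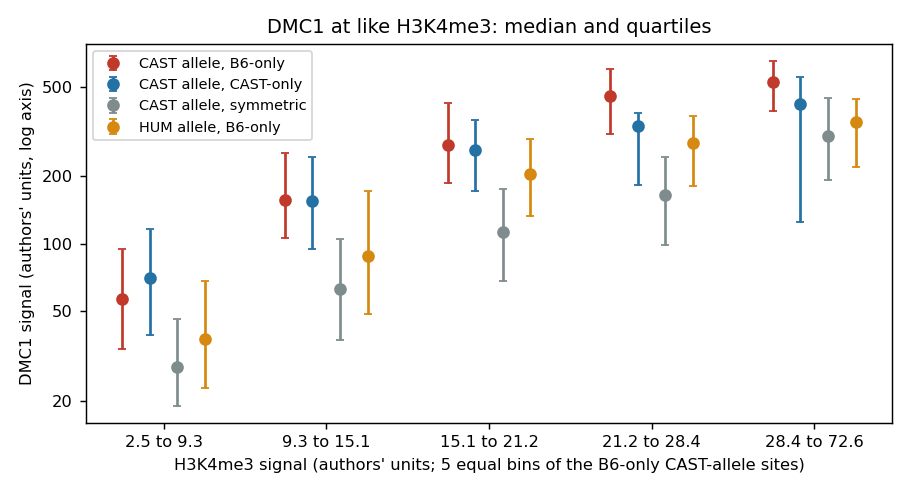
Median DMC1 signal (y axis, log scale; bars are quartiles) in 5 ranges of H3K4me3 signal (x axis), each holding an equal number of the B6-only CAST-allele sites, for these sites and the 3 comparison sets. B6-only CAST-allele medians go from 56.4 to 524 and lie above the symmetric medians of 28.2 to 302 in each range.

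Signal on the B6 homologue alone was taken as the signal times its B6 share. At B6-only CAST-allele sites the median DMC1 on the B6 homologue was 261, against 33.8 at symmetric sites, and 7.67-fold higher. H3K4me3 on the B6 homologue was 17.1 and 6.88, a difference of 2.49-fold, against 1.31-fold in total H3K4me3. The selection set part of that difference, since the H3K4me3 share it used is a factor of the product. DMC1 per H3K4me3 on the B6 homologue, which holds the same share, was 2.76-fold higher. On the CAST homologue B6-only CAST-allele sites had a median DMC1 of 2.45, against 40.8 at symmetric sites. The male X outside its pseudoautosomal part has no homologue, and 421 CAST-allele X sites off PRDM9-independent peaks with a DMC1 share over 0.9 were set beside these sites. The median DMC1 on the B6 chromosome was 261 (quartiles 113 and 475) at B6-only CAST-allele sites, against 136 (38.4 and 423) at these X sites. The selection differed, by H3K4me3 share at the former and by DMC1 share at the latter, which limits the comparison. Total H3K4me3 had medians of 17.8 and 14.0, a difference of 1.27-fold. Among the 341 X sites with an H3K4me3 share, H3K4me3 on the B6 chromosome had a median of 17.1, as at the B6-only CAST-allele sites. Over all 421 X sites, DMC1 per H3K4me3 was 1.35-fold higher at the autosomal B6-only sites. The X comparison was chosen after the data had been seen.

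B6-only CAST-allele sites made up a growing part of the CAST-allele sites as DMC1 increased. The CAST-allele sites were cut into 10 equal bins by DMC1. In the weakest bin B6-only sites were 22 of 1071, or 2.05% (1.29% to 3.09%), in bin 5 they were 7.38%, in bin 9 20.2%, and in the strongest bin 372 of 1071, or 34.7% (31.9% to 37.7%). CAST-only sites were 1.68% of the weakest bin, at most 5.79%, and 2.43% of the strongest. B6-only HUM-allele sites were 3.58% of the weakest bin of HUM-allele sites, 9.77% of bin 7, 7.79% of bin 8, at most 12.5% in bin 9, and 10.1% of the strongest. Of the 100 strongest CAST-allele autosomal sites off PRDM9-independent peaks, 44 were B6-only, 2 CAST-only and 38 symmetric. A DMC1 signal over 2 times the symmetric median was found at 833 of the 1224 sites, or 68.1%, against 34.9% of all such CAST-allele sites. The 1224 sites were 10.7% of the CAST-allele sites by number, and carried 21.3% of their summed DMC1 and 12.4% of their summed H3K4me3. Among sites with a DMC1 share they were 11.4% by number and held 34.1% of the DMC1 on the B6 homologue. CAST-only sites were 3.72% of the same sites and held 10.7% of the DMC1 on the CAST homologue. The DMC1 share is a factor of both sums, so such an excess is not particular to the B6-only sites.

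**Figure D4:**
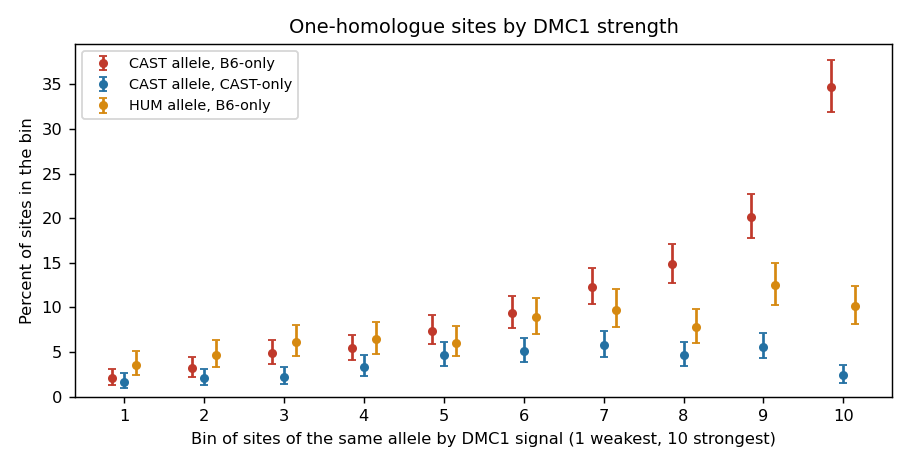
Percent of sites (y axis; bars are exact 95% intervals for counting error) that were one-homologue in H3K4me3, in 10 bins of DMC1 signal (x axis, weakest to strongest), for B6-only CAST-allele, CAST-only and B6-only HUM-allele sites. The B6-only CAST-allele points climb from 2.05% to 34.7%, while CAST-only points stay at or under 5.79%.

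The 10 strongest sites had DMC1 signals of 945 to 1093 and DMC1 B6 shares of 0.989 to 0.999. The first 2 were in Gdf6, a growth factor of the bone morphogenetic protein family (chromosome 4, 9851229), and 92.1 kb from Lhfp (chromosome 3, 53353790). Their H3K4me3 of 19.2 and 17.9 was near the median of the 1224 sites, and their ratios of DMC1 to H3K4me3, 57.0 and 58.6, were among the 5 highest. Sites further down the 10 lay 169 kb from Gm38821 (chromosome 6, 51054430; DMC1 1006) and 112 kb from Gask1b, a Golgi protein (chromosome 3, 80057898; 1001). A site 1.52 kb from Bmp4, a growth factor of early development (chromosome 14, 46382004; 995), had the highest H3K4me3 of the 10, at 40.6. Further sites of the 10 were in Ptpn14, a tyrosine phosphatase (chromosome 1, 189829249; 958), in Brf2, a factor of RNA polymerase III (chromosome 8, 27126293; 950), in B4galt1, a galactosyltransferase (chromosome 4, 40812261; 946), and in Fndc3b (chromosome 3, 27416718; 945). The H3K4me3 shares of the 10 were 0.944 to 0.988.

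The 5 weakest sites all lay inside genes, as did 53.5% of the 1224 sites, and 5 are too few to read a pattern from. They were in Ypel2 (chromosome 11, 86969922; DMC1 10.5), in Atg7, an enzyme of autophagy (chromosome 6, 114702483; 11.6), in Tmem175, a lysosomal potassium channel (chromosome 5, 108633392; 11.6), in Chst15, a sulfotransferase (chromosome 7, 132306620; 13.2), and in Wdfy3, a protein of selective autophagy (chromosome 5, 102009189; 13.6). Their H3K4me3 was 3.83 to 6.17, and in Tmem175 and Chst15 no DMC1 share was given. Beside Lhfp and Gdf6, the highest ratios of DMC1 to H3K4me3 were in Samd5 (chromosome 10, 9666114; 58.7), 47.9 kb from Egln3, an oxygen-sensing prolyl hydroxylase (chromosome 12, 54131115; 54.6), and in Il6st, the shared receptor chain of the interleukin 6 family (chromosome 13, 112495365; 49.0). The lowest were 10.4 kb from Fam171b (chromosome 2, 83893913; 1.11), 11.7 kb from Olfr344, an olfactory receptor (chromosome 2, 36581262; 1.13), 40.9 kb from Gm6619 (chromosome 6, 131445543; 1.22), 350 kb from Megf9 (chromosome 4, 70884657; 1.23) and in Lrfn5, a synaptic adhesion molecule (chromosome 12, 61534552; 1.44). The DMC1 shares of these 5 were 0.939 to 1, and their H3K4me3 of 13.1 to 19.3 was within the quartiles of the 1224 sites.

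Every autosome carried such sites. Their part of the CAST-allele sites with an H3K4me3 share ranged from 9.31% on chromosome 9 (7.09% to 11.9%) to 13.6% on chromosome 15 (10.5% to 17.2%), and these intervals overlap. On 19 of 19 autosomes they outnumbered CAST-only sites, by 1.97 to 1 on chromosome 6 and 4.90 to 1 on chromosome 16. Their median DMC1 was 200 on chromosome 6 and 339 on chromosome 12, the lowest and highest of the autosomes, and the median DMC1 share was 0.987 to 0.991. Along the autosomes, cut into 5 stretches of equal length from the centromere to the distal end, they were 12.4%, 11.3%, 11.3%, 10.3% and 11.8% of the CAST-allele sites.

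**Figure D5:**
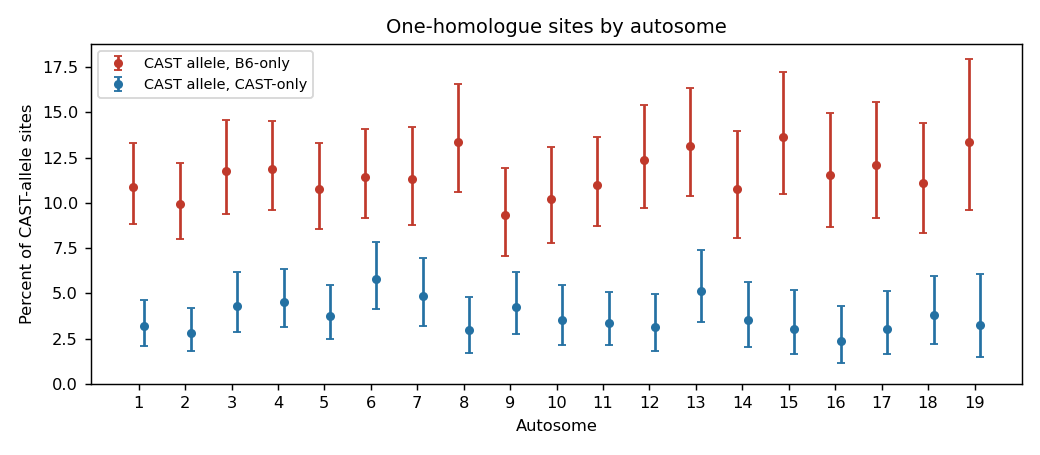
Percent of CAST-allele sites with an H3K4me3 share (y axis; bars are exact 95% intervals for counting error) that were B6-only or CAST-only, for each autosome (x axis). B6-only sites lie between 9.31% and 13.6% and above CAST-only sites on each autosome.

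Most neighbouring sites were not one-sided. The nearest other site of any class was at a median of 30.6 kb and the nearest other B6-only CAST-allele site at 545 kb. The nearest CAST-allele site with an H3K4me3 share was itself B6-only in 11.8% of the 1224 cases (10.0% to 13.7%), the same as the 11.8% (11.1% to 12.6%) around symmetric sites and near the 11.4% of all such sites. Within 10 kb the value was 27 of 138 neighbours, or 19.6% (13.3% to 27.2%), against 90 of 755, or 11.9% (9.70% to 14.4%), around symmetric sites. Only 28 of the 1224 sites had another B6-only CAST-allele site within 10 kb. Most of the 27 are therefore pairs counted from both ends, and the interval treats them as independent. Nearest HUM-allele sites had a median H3K4me3 share of 0.5, and 8.42% of them were B6-only. The 3 closest pairs were 2.31 kb apart in Ddo, a D-aspartate oxidase (chromosome 10, 40634370 and 40636681; DMC1 153 and 237), 2.41 kb apart in Nr3c2, the mineralocorticoid receptor (chromosome 8, 76905018 and 76907423; 414 and 249), and 2.61 kb apart in Ttc29, a gene of sperm flagella (chromosome 8, 78232197 and 78234806; 778 and 569).

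The sites lay inside protein-coding genes as often as other sites did. Of the 1224, 655 were inside a gene body of the RefSeq annotation, or 53.5% (50.7% to 56.3%), against 50.4% of CAST-only, 53.4% of symmetric, 53.3% of B6-only HUM-allele, 52.1% of all CAST-allele sites off PRDM9-independent peaks and 53.9% of all autosomal sites. The median distance to the nearest start of a protein-coding gene was 60.9 kb (1174 sites; starts on chromosome 18 were not used here), against 60.9 kb at CAST-only, 65.1 kb at symmetric and 55.1 kb at B6-only HUM-allele sites. A start lay within 5 kb of 57 sites, or 4.86% (3.70% to 6.25%). This was near the 5.70% of CAST-only, 5.29% of symmetric and 5.62% of all CAST-allele sites off PRDM9-independent peaks. The part was 6.78% of B6-only HUM-allele sites and 8.08% of all autosomal sites, which include those on PRDM9-independent peaks. The 655 sites fell in 599 genes, of which 544 held 1 and 55 held 2 or more. The most, 3, were in Arhgap26, a GTPase-activating protein (chromosome 18; of 13 CAST-allele sites), Opcml, a neuronal adhesion protein (chromosome 9; of 8), and Ryr2, the calcium release channel of heart muscle (chromosome 13; of 6).

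Counted in the gene body with 5 kb on each side, 695 of 20661 autosomal protein-coding genes, or 3.36%, held such a site. Gene length was not taken into account, so the counts for listed genes are a description. Of the 28 autosomal genes of meiotic break formation and repair 2 did. They were Mlh3, which acts in crossover formation (chromosome 12, 85247178; DMC1 513, H3K4me3 16.0, shares 0.944 and 0.931), and Gm960, the RefSeq symbol for Top6bl, the partner of SPO11 (chromosome 19, 4629552; DMC1 199, H3K4me3 5.67, shares 0.985 and 0.907). Of 12 CAST-allele sites with an H3K4me3 share in these genes, 2 were B6-only (16.7%, against 11.4% of all such sites). Of the 14 genes for the axis and the synaptonemal complex 1 did, Hormad2, an axis protein (chromosome 11, 4369236; DMC1 543), with 1 of 3 sites. The 10 Sertoli and Leydig cell genes and the 7 spermatid genes had none, with 0 and 1 CAST-allele sites in all.

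Of the 12 long neuronal genes 5 did, Nrxn3, Ptprd, Dlg2, Macrod2 and Ctnna2. They held 7 sites, of 65 CAST-allele sites with a share in the 12 genes (10.8%). Nrxn3, which encodes a neurexin of the synapse, had the strongest (chromosome 12, 90143937; DMC1 694, share 0.994). Of the 14 ephrin receptor genes 3 did, with 4 of 17 sites (23.5%). Epha7 had 2 of them (chromosome 4, 28839987 and 28964476; DMC1 803 and 472, shares 0.998 and 0.994). The others were in Epha10 (chromosome 4, 124917239; DMC1 625) and Epha6 (chromosome 16, 60270205; DMC1 141). These receptors guide growing axons by contact between cells. The lists are too short for their shares to be read against the background.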

How the data were processed

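DMC1 ChIP-seq and H3K4me3 ChIP-seq of F1 testis were used, 1 library each of the 3 in the series; the MNase-seq library was not used here. The submitters' processing notes name BWA (0.7.15 for the H3K4me3 library) and the mm10 build. The deposited table gives, per the file headers, a DMC1 signal and an H3K4me3 signal (intensities from the authors' peak callers) and, for each mark, the fraction of signal on the B6 homologue. Raw H3K4me3 data are credited there to Li and colleagues. Whether they equal this series' library, and how signals were scaled, was not established. The depth behind a signal or share is unknown, and 62.8% of H3K4me3 values recur at another site.

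Signals were compared as medians of log2 values with no pseudocount (Python 3.11.15, pandas 2.3.3, scipy 1.17.1). Shares of sites have exact Clopper-Pearson 95% intervals, and medians order-statistic intervals, tested on simulated data. Genes came from RefSeq GRCm38.p6; of 91 symbols in 6 gene lists 90 were matched. Named sites are the 10 strongest and 5 weakest by DMC1, the 5 highest and lowest ratios, the 5 lowest DMC1 shares, the 3 nearest each side of the threshold, the 3 closest pairs, the genes with the most sites and those of listed genes. No protein-coding promoter window in use held the centre of one of the 1224 sites, so windows of noncoding genes were shown for them. Those of chromosome 18, with 50 of the 1224 sites, were not in use. At symmetric sites 15 of 6799 centres lay in a window, 5 of them in that of a protein-coding gene. It was 1 of 403 at CAST-only and 1 of 615 at B6-only HUM-allele sites. Members and lists were chosen with earlier results of these data known. 1 of the 10 sites with the strongest DMC1 is counted in the ranges but not reported here by position or gene.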

Additional observations from a re-analysis of the deposited data

How the results depend on the processing

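Of 248 values over 14 results, 211 stayed the same, 35 moved and 2 differences changed sign. The 248 include the differences found on leaving out each of the 19 autosomes in turn, which removed few sites at a time. All values that moved or changed sign came from the other settings. The count of 211 therefore overstates how little the results depended on the settings. A value was the same if it moved by no more than the margin on either side of the 95% interval over sites. The number of sites was judged by a fold limit instead. This margin is not a replicate spread, since sites are not replicates. Leaving out any one autosome moved none of the differences beyond that margin. The log2 difference in DMC1 from symmetric sites then ranged from 1.79 to 1.83. At matched H3K4me3 (10 bins) the log2 difference in DMC1 was -0.026 against CAST-only sites, 1.21 against symmetric sites and 0.65 against B6-only HUM-allele sites. Leaving out sites with a recurring H3K4me3 value left 552 sites with a median DMC1 share of 0.991. The log2 differences from symmetric sites were then 1.35 in DMC1, -0.00087 in H3K4me3 and 2.45 in DMC1 on the B6 homologue, that in DMC1 per H3K4me3 from B6-only HUM-allele sites was 0.66, and 56.9% lay inside genes with 18.9% of CAST-allele sites on the highest autosome.

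A share threshold of 0.95 left 621 sites, with a median DMC1 share of 0.993, 99.2% over 0.9, log2 differences from symmetric sites of 2.21 (DMC1), 0.62 (H3K4me3), 1.35 (ratio) and 3.34 (DMC1 on the B6 homologue), and 3.78% to 7.51% of CAST-allele sites by autosome. A threshold of 0.8 gave 2042 sites, 0.983, 93.9%, 1.42, 0.22, 1.05, 2.55, and 15.8% to 22.7% in the same order. With means of log2 values the differences in DMC1 were 1.45 from symmetric sites, 2.62 on the B6 homologue and 1.39 from B6-only HUM-allele sites. With symmetric sites taken at 0.4 to 0.6 they were 1.62 in DMC1, 0.23 in H3K4me3 and 2.79 on the B6 homologue. With 5 kb flanks 59.3% were in genes, and 99.3% had a DMC1 share over 0.8. The share threshold itself sets the number of sites and their percent by autosome. Wider flanks and a lower DMC1 cut can only raise their percents. The cause of the other changes was not tested. The unknown depth behind each share limits what a weak site can show. No paired analysis was possible because each assay has 1 library.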
